A study of Sus scrofa with 17 samples.

Results

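*TWIST1*, *BMP3* and *INHBB* were followed in RNA from porcine kidneys perfused with or without extracellular vesicles (EVs) of porcine urine progenitor cells (pUPCs). These are 3 of the 26560 genes in the count table. They were chosen by name, as a mesenchymal transcription factor with a pair of TGF-beta superfamily ligand genes, and with the difference between G3 and G1 already known. That difference is therefore given as a description, with no p for these genes.

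One kidney was taken from each of 17 wild-type female Dutch Landrace pigs aged 6 months to 1 year. Every kidney, controls included, underwent 32 min of warm ischemia, 24 h of hypothermic machine perfusion (HMP) and 5 h of normothermic machine perfusion (NMP) with the pig's own blood cells, and was biopsied at the end of NMP. G1 (5 kidneys) received the PBS vehicle in both perfusions, G2 (6 kidneys) received pUPC-EVs during HMP and vehicle during NMP, and G3 (6 kidneys) received pUPC-EVs in both. All EVs came from 1 pooled preparation and the kidneys were outside the body throughout. The total counts per kidney ran from 19270046 to 24736473. Sample codes form 3 runs of consecutive numbers, called series A, B and C, whose meaning is not given in the sources used here. The G1 kidneys fall 2, 2 and 1 in these series, the G2 kidneys 2 in series A and 4 in series C, and the G3 kidneys 1, 1 and 4.

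TWIST1 is a basic helix-loop-helix transcription factor of mesenchymal cells. It binds E-box DNA as a dimer, often with an E-protein such as TCF3, TCF4 or TCF12, and it is one of the factors that can repress epithelial genes when epithelial cells take on mesenchymal traits. BMP3 and INHBB belong to the TGF-beta superfamily, whose ligands bind pairs of type I and type II serine/threonine kinase receptors that phosphorylate SMAD proteins. INHBB is the beta B subunit that forms activin B as a homodimer and inhibin B with the alpha subunit, while BMP3 is known as an antagonist of other bone morphogenetic proteins. In the kidney, this superfamily takes part in nephron development and in fibrosis after injury.

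TWIST1 was highest in the kidneys without EVs and about equally low in both EV groups. TWIST1 (ENSSSCG00000058909) lies on chromosome 9 of Sscrofa11.1 (RefSeq) from 88286911 to 88290131. In G1 kidneys 1 to 5 it was at 2.52, 1.87, 3.48, 2.58 and 3.30 CPM (read counts scaled by library size with TMM normalization). In G2 the lowest kidney was at 0.918 CPM, the median at 1.52 and the highest at 2.55. In G3 the lowest was at 1.07 CPM, the median at 1.53 and the highest at 1.75. Every one of the 6 G3 kidneys was lower than the lowest G1 kidney, as was so for 0.187% of all genes, and nothing is read from this since the gene was chosen with that contrast known. Of the 6 G2 kidneys, 5 were below all G1 kidneys, and G2 kidney 6 lay above G1 kidneys 1 and 2. The raw counts behind these values ran from 41 to 76 in G1, from 20 to 47 in G2 and from 22 to 42 in G3.

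**Figure D1:**
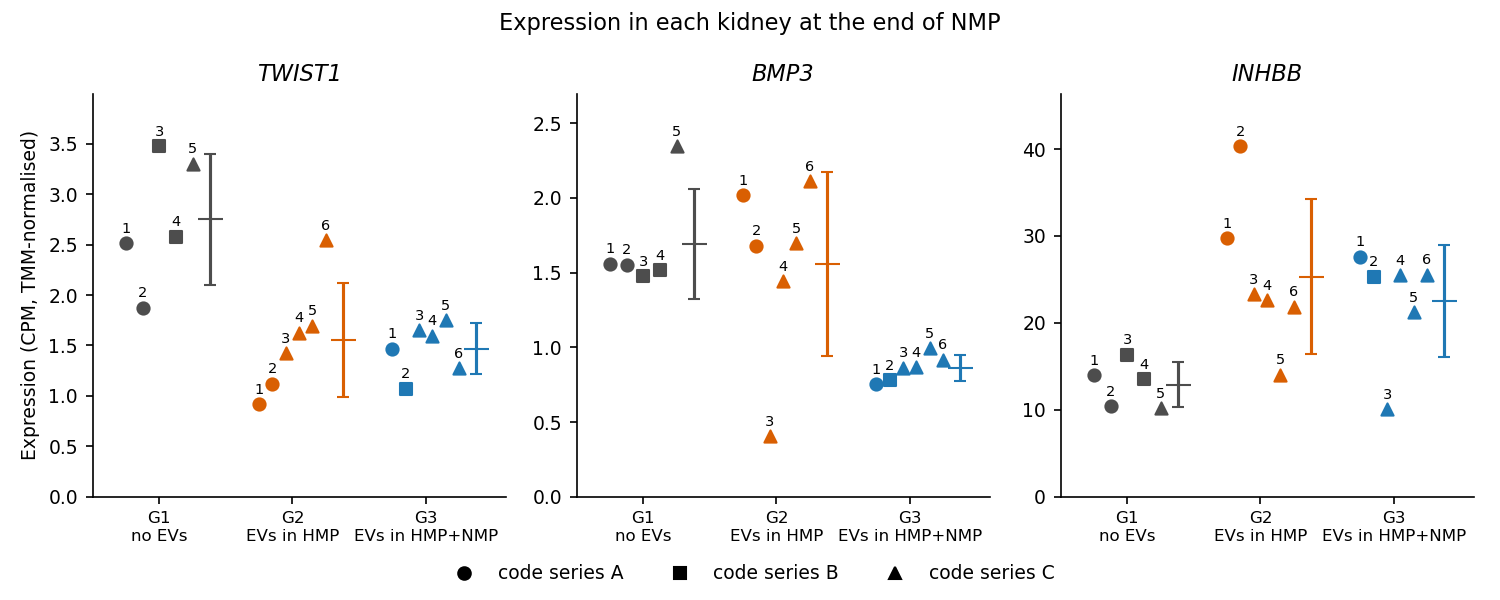
Expression of TWIST1, BMP3 and INHBB in each kidney (CPM on a linear axis from 0), by group, with the kidney number above each point, the code series as the symbol and the mean with its SD at the right of each group. TWIST1 is low in both EV groups except G2 kidney 6, INHBB is high in both except G3 kidney 3 and G2 kidney 5, and BMP3 lies between 0.754 and 0.995 CPM in G3, below all G1 kidneys.

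On average, TWIST1 stood at 2.75 ± 0.649 CPM in the 5 kidneys of G1 (SD), 1.56 ± 0.569 CPM in the 6 of G2 and 1.47 ± 0.256 CPM in the 6 of G3. G3 differed from G1 by a log2 fold change of -0.91 (standard error 0.249). G2 differed from G1 by -0.83 (standard error 0.293, 95% interval -1.44 to -0.21), with an unadjusted p of 0.0120 and an adjusted p of 0.840 from edgeR's quasi-likelihood test, so it did not pass. The G2 kidneys had no part in the contrast from which TWIST1 was chosen, but the G1 kidneys did, so this p is not independent of the choice. Between G3 and G2 the log2 fold change was -0.07 (95% interval -0.68 to 0.53, adjusted p = 1.0 from edgeR). Within series A, B and C the difference in mean log2 CPM between G3 and G1 was -0.54, -1.41 and -1.04, and between G2 and G1 it was -1.03 in series A and -0.86 in series C. The order of the groups is thus G1, then G2 and G3, whose ranges overlap.

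INHBB ran the other way, low without EVs and higher in most kidneys of both EV groups. INHBB (ENSSSCG00000038610) lies on chromosome 15 from 30999994 to 31004405. In G1 kidneys 1 to 5 it was at 13.96, 10.4, 16.3, 13.6 and 10.2 CPM. In G2 it ran from 14.03 CPM in kidney 5 over a median of 23.0 to 40.3 in kidney 2. In G3 it ran from 10.1 CPM in kidney 3 over a median of 25.4 to 27.6 in kidney 1. In each EV group 5 of 6 kidneys were above all G1 kidneys. G2 kidney 5 fell inside the G1 range, and G3 kidney 3 was below every G1 kidney. With 228 to 1008 counts per kidney, INHBB had the most reads of the 3 genes in every kidney.

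On average, INHBB stood at 12.9 ± 2.596 CPM in the 5 kidneys of G1 (SD), 25.3 ± 8.90 CPM in the 6 of G2 and 22.5 ± 6.46 CPM in the 6 of G3. The log2 fold change of G3 against G1 was 0.80 (standard error 0.215), and 0.95 without G3 kidney 3. G2 was higher than G1 by 0.97 (standard error 0.222, 95% interval 0.51 to 1.44), or 1.97-fold. Its unadjusted p of 4.01e-04 was the second smallest of 25699 genes in that comparison, yet the adjusted p from edgeR was 0.840 and the difference did not pass. A fit with a covariate for code series gave a log2 fold change of 1.29 and an adjusted p from edgeR of 0.0245, which did pass. Within series A, with 2 kidneys of each group, G2 exceeded G1 by 1.51 in mean log2 CPM, and within series C, with 1 kidney of G1, by 0.97. The G1 kidneys here too are those of the contrast from which INHBB was chosen. Between G3 and G2 the log2 fold change was -0.16 (95% interval -0.66 to 0.34, adjusted p = 1.0 from edgeR).

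BMP3 was low in G3, and in G2 it lay near G1 in 5 of 6 kidneys. BMP3 (ENSSSCG00000029061) lies on chromosome 8 from 136880456 to 136904739. In G1 kidneys 1 to 5 it was at 1.56, 1.55, 1.48, 1.52 and 2.35 CPM, so that G1 kidney 5 stood above the others. In G2 it ran from 0.407 CPM over a median of 1.69 to 2.11, and in G3 from 0.754 CPM over a median of 0.866 to 0.995. Every G3 kidney was lower than the lowest G1 kidney, beside 0.187% of all genes, and here too the choice of the gene used that contrast. In 5 G2 kidneys BMP3 was between 1.44 and 2.11 CPM, above every G3 kidney, while G2 kidney 3 had 8 counts and the lowest level of all 17 kidneys.

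On average, BMP3 stood at 1.69 ± 0.368 CPM in the 5 kidneys of G1 (SD), 1.56 ± 0.615 CPM in the 6 of G2 and 0.863 ± 0.0886 CPM in the 6 of G3. G3 against G1 gave -0.98 on the log2 scale (standard error 0.268). The log2 fold change of G2 against G1 was -0.12 (standard error 0.347, 95% interval -0.85 to 0.62, adjusted p = 0.977 from edgeR), and without G2 kidney 3 it was 0.07. For G3 against G2 it was -0.85 (standard error 0.341, 95% interval -1.56 to -0.13, unadjusted p = 0.0232, adjusted p = 0.948 from edgeR), which did not pass. Without G2 kidney 3, G3 was lower than G2 by -1.05 with an adjusted p of 0.965, and over the 12 edgeR fits that left out 1 kidney the adjusted p ran from 0.847 to 1.0. The exact permutation test of log2 CPM over the 12 kidneys gave a difference of -0.66 (two-sided, p = 0.0823). The unadjusted p in edgeR was 0.0550 with kidney number as a block and 0.0571 with a covariate for code series. The G3 kidneys are those of the contrast from which BMP3 was chosen. Within series C, with 4 kidneys of each group, the difference between G3 and G2 was -0.40 in mean log2 CPM, and within series A it was -1.19 with 1 kidney of G3. G3 and G1 differed by -0.96 in series A, -0.87 in series B and -1.28 in series C. G2 and G1 differed by 0.23 in series A and by -0.89 in series C, where the 1 kidney of G1 was kidney 5, the highest in BMP3.

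**Figure D2:**
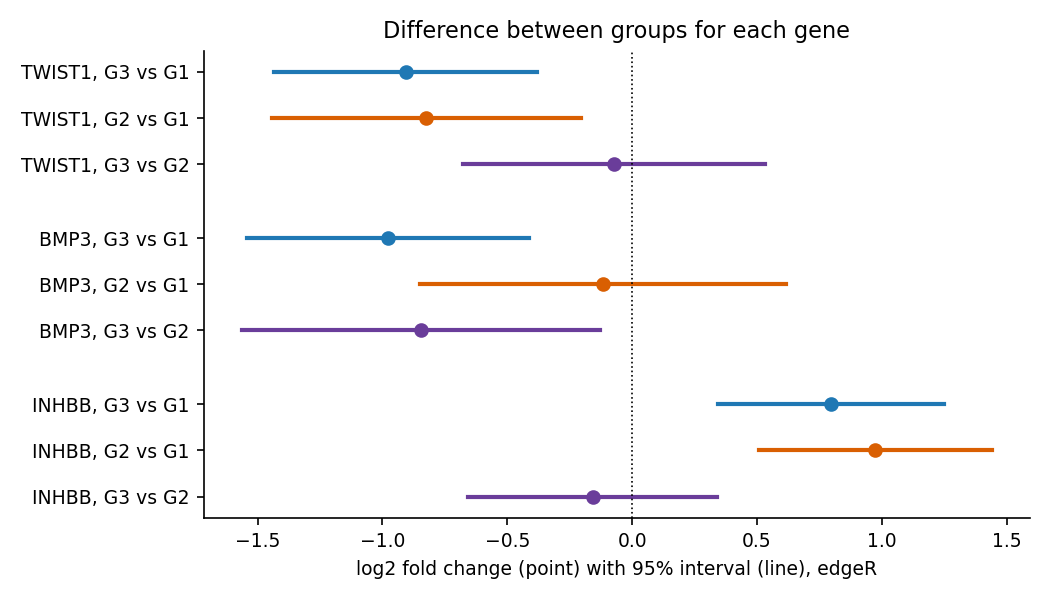
Log2 fold change (points) with its 95% interval (lines) from edgeR for TWIST1, BMP3 and INHBB in each comparison of groups. TWIST1 and INHBB lie away from 0 in both comparisons with G1 and near 0 between G3 and G2, while BMP3 lies at -0.12 between G2 and G1. Intervals are not adjusted for the number of genes, and those of G3 against G1 are of genes chosen for that contrast.

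Set side by side, the comparisons share kidneys, since G1 enters both comparisons with an EV group. Between G3 and G1 edgeR called 2 of 25719 genes (0.00778%) at an adjusted p under 0.05 and 4.73% at an unadjusted p under 0.05, and the groups did not overlap for 0.311%. The 3 genes are not counted against these shares, since this contrast chose them. Between G2 and G1, edgeR called 0 of 25699 genes (0%) at an adjusted p under 0.05 and DESeq2 called 1, which is none of these. TWIST1 and INHBB, 2 of the 3, had an unadjusted p under 0.05, beside 3.51% of all genes. For 0 of the 3 were G2 and G1 without overlap, beside 0.206% of all genes. Between G3 and G2, edgeR again called 0 genes (0%) and DESeq2 called 3, none of them these, and 1 of the 3 (BMP3) had an unadjusted p under 0.05, beside 3.13% of all genes. No overlap was seen for 0 of the 3, beside 0.0973% of all genes.

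The spread within a group was compared with counting error, since TWIST1 and BMP3 have few reads. For BMP3 in G3, with 16 to 22 counts per kidney, chi-square per degree of freedom was 0.435, no more than counting error gives. These G3 values belong to the contrast by which the gene was chosen, so nothing is read from their small spread. For BMP3 it was 2.27 in G1 and 5.33 in G2, and for TWIST1 it was 3.17, 3.32 and 2.01 in G1, G2 and G3. For INHBB it was 9.07 in G1, 93.3 in G2 and 42.8 in G3. Kidneys of separate pigs are compared here with counting error alone, and the G1 and G3 values of all 3 genes belong to the contrast by which they were chosen. Reads amplified by PCR are not independent molecules, and these values cover counting error only.

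Whether the genes moved together was tested within the 6 G2 kidneys, which the contrast of G3 with G1 did not use. TWIST1 and INHBB had Pearson's r = -0.60 (two-sided exact permutation test, p = 0.179, adjusted over the 3 pairs 0.538) and Spearman's rho = -0.89 (exact permutation test, p = 0.0333, adjusted 0.10). G2 kidneys 1 and 2 had the lowest TWIST1, at 0.918 and 1.12 CPM, and the highest INHBB, at 29.7 and 40.3 CPM, and both are of series A. Without kidneys 1 and 6, the 2 farthest from the median of TWIST1, r was -0.93, over too few kidneys for anything to be read from it. BMP3 had r = 0.07 with TWIST1 (exact permutation test, p = 0.843) and r = 0.06 with INHBB (exact permutation test, p = 0.856), and Spearman's rho was 0.26 and -0.26 (exact permutation test, p = 0.658 for each). None of the 3 relations passed the adjustment. Over all 17 kidneys with the group means removed, r was -0.35 for TWIST1 with INHBB, 0.14 for TWIST1 with BMP3 and -0.05 for BMP3 with INHBB, given as a description.

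**Figure D3:**
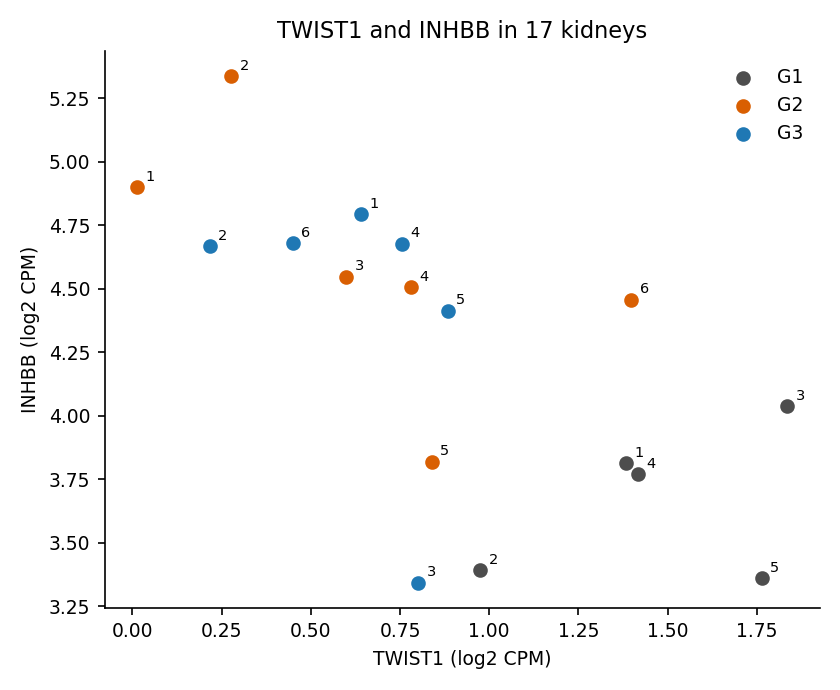
TWIST1 against INHBB (log2 CPM on both axes) in 17 kidneys, coloured by group and numbered by kidney. G1 lies at low INHBB with TWIST1 of 0.97 or more, and most EV kidneys lie at high INHBB and low TWIST1, with G3 kidney 3 and G2 kidney 5 at low INHBB.

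The cell types of the biopsies were read from marker lists. Proximal tubule markers were the most abundant, at a summed level of 9396 to 19427 CPM per kidney over 6 of 6 genes, and urothelium markers were at 1.35 to 3.06 CPM over 4 of 5 genes, so the material was renal parenchyma as labelled. The 9 of 10 endothelial markers in the table ran from 799.8 to 1007 CPM in G1, from 716.0 to 1339 in G2 and from 692.2 to 1280 in G3. The 12 of 12 fibroblast and pericyte markers ran from 574.6 to 954.7 CPM in G1, from 667.1 to 1236 in G2 and from 490.2 to 968.8 in G3. No list had a marker at 0 in every kidney. Between G2 and G1 the log2 fold change was above 0 for 12 of 12 fibroblast and pericyte markers (median 0.31), 9 of 9 endothelial (0.23), 6 of 8 leukocyte (0.43), 4 of 5 podocyte (0.20), 6 of 6 proximal tubule (0.15), 5 of 9 distal nephron and collecting duct (0.09) and 3 of 4 urothelium markers (0.04), beside a median of -0.01 for all genes. An unadjusted p under 0.05 in edgeR was found for 2, 1, 1, 1, 0, 1 and 0 of these, beside 3.51% of all genes, among them CD14, a monocyte marker, at 7.85 CPM in G1 and 12.9 in G2 on average (log2 fold change 0.72, unadjusted p = 8.26e-04, adjusted p = 0.840, edgeR). The 2 leukocyte markers below 0 were CD68 and CD3E, at log2 fold changes of -0.008 and -0.25. Between G3 and G1 the log2 fold change was above 0 for 7 of 9 endothelial markers (median 0.23) and 6 of 8 leukocyte (0.15). It was so for 5 of 6 proximal tubule (0.12) and 5 of 9 distal nephron and collecting duct (0.15). For fibroblast and pericyte it was 6 of 12 (-0.01), for podocyte 2 of 5 (-0.16) and for urothelium 2 of 4 (-0.07). The median of all genes was -0.02. In edgeR 1 endothelial and 1 podocyte marker had an unadjusted p under 0.05, beside 4.73% of all genes. Bulk RNA cannot tell fewer cells of a type from less RNA per cell.

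INHBB was next set against the endothelial markers, kidney by kidney. Over 17 kidneys Pearson's r between log2 CPM of INHBB and the log2 summed endothelial level was 0.74 and Spearman's rho was 0.74, the largest of 21 relations between the 3 genes and 7 marker lists. These values take in the difference between G3 and G1 for which INHBB was chosen, so they are given with no p. Without the 2 kidneys farthest from the median endothelial level r was 0.68, and with the group means removed it was 0.81. It was 0.22 within the 5 G1 kidneys, 0.82 within the 6 of G2 and 0.92 within the 6 of G3. The G3 value rested on kidney 3, without which r was -0.02 over the other 5, while in G2 it was 0.68 to 0.91 with any 1 kidney left out. G3 kidney 3, the lowest in INHBB, was also the lowest of all kidneys in endothelial markers, at 692.2 CPM, and G2 kidney 5 was the next lowest, at 716.0 CPM. INHBB stood at 1.08% to 1.75% of the summed endothelial level in G1, at 1.88% to 3.01% in G2 and at 1.45% to 2.66% in G3. These relations were looked at after the data had been seen, and what part the endothelial share plays in the group difference was not tested.

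**Figure D4:**
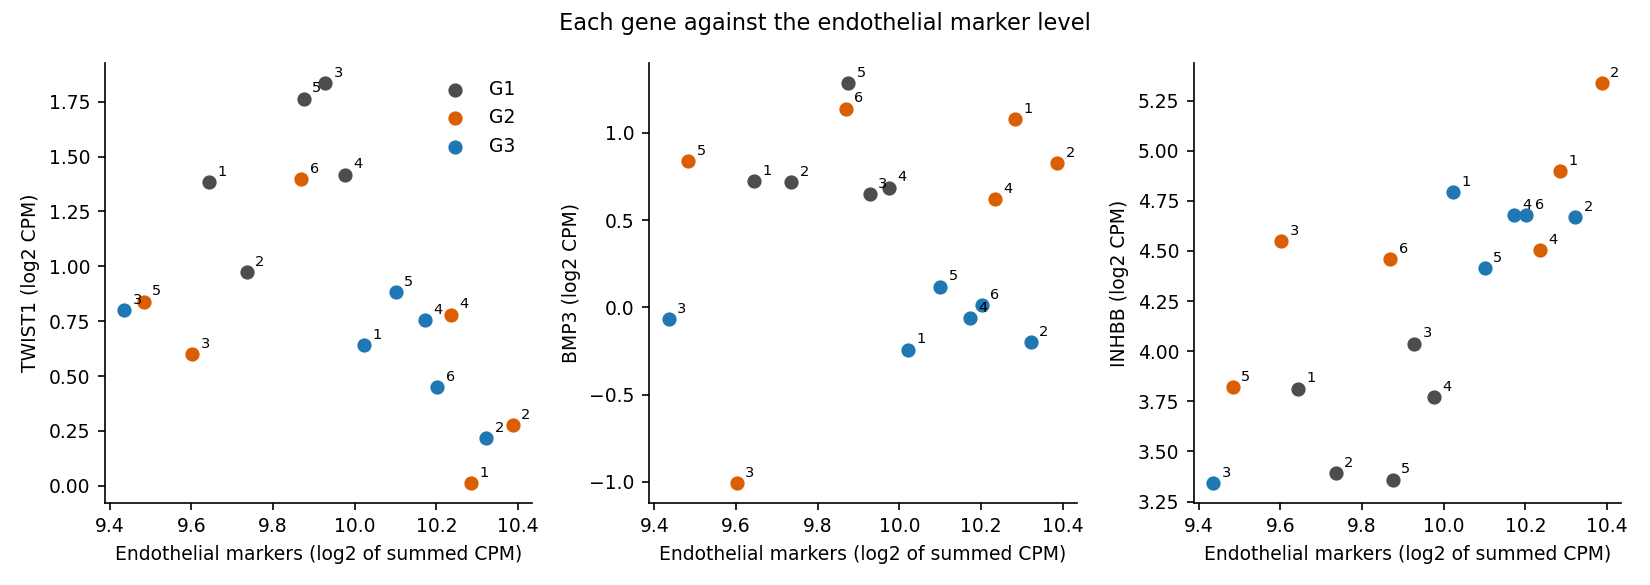
TWIST1, BMP3 and INHBB (log2 CPM) against the endothelial marker level (log2 of the summed CPM of 9 genes) in each of 17 kidneys, coloured by group and numbered. INHBB rises with the endothelial level over all kidneys (r = 0.74), among the G3 kidneys through kidney 3, with the G1 kidneys below most EV kidneys of like endothelial level. BMP3 shows no such slope over all kidneys (r = 0.07). Its r was 0.31 with the group means removed, 0.44 within G2 and -0.05 within G3.

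TWIST1 and BMP3 are described against the same lists. TWIST1 had r = -0.44 with the endothelial level and Spearman's rho of -0.56. Its largest r was with the urothelium level, at -0.45, and -0.37 without the 2 kidneys farthest from the median. With the group means removed that r was -0.60, and within G2 it was -0.90. The urothelium level was only 1.35 to 3.06 CPM per kidney, and UPK1A and UPK2 had at most 12 and 3 counts in any kidney. Nothing is read from a relation with a level so near the floor. With the fibroblast and pericyte level, TWIST1 had r = -0.01, and 0.59 within G1, 0.66 within G2 and -0.87 within G3. With 1 kidney left out, r ran from 0.29 to 0.81 within G1, from 0.30 (without kidney 6, the highest in both measures) to 0.93 within G2 and from -0.92 to -0.73 within G3. TWIST1 stood at 0.283% to 0.498% of the summed fibroblast and pericyte level in G1, at 0.0954% to 0.206% in G2 and at 0.111% to 0.337% in G3. The summed level itself had a median of 662.9 CPM in G1, 963.8 in G2 and 644.4 in G3, and the part of these markers in the level of TWIST1 was not tested. BMP3 had its largest r with the proximal tubule level, at -0.48, and -0.23 without the 2 kidneys farthest from the median.

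The other genes of these pathways did not show a difference that passed the test. Of 112 further genes on 8 lists, 102 were in the table. At an adjusted p under 0.05 edgeR and DESeq2 called 0 of them in each of the 3 comparisons. At an unadjusted p under 0.05, edgeR gave 2 of 101 (1.98%, beside 4.73% of all genes) between G3 and G1, 10 of 102 (9.80%, beside 3.51%) between G2 and G1 and 3 of 101 (2.97%, beside 3.13%) between G3 and G2. With 1 kidney left out these counts ran from 1 to 6, from 4 (without G1 kidney 2) to 11 and from 1 to 7. The count over all genes also varied over those fits, so no rise or fall is read from these ranges. These shares are descriptions, and no list was tested as a set.

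Among the other ligands, 1 of 23 tested between G3 and G1 (4.35%) had an unadjusted p under 0.05, near the 4.73% of all genes. This was BMP4, a bone morphogenetic protein of kidney development, at 19.9 ± 5.598 CPM (SD, 5 kidneys) in G1 and 14.9 ± 3.22 CPM (SD, 6 kidneys) in G3 (log2 fold change -0.43, adjusted p = 0.813 from edgeR). The median log2 fold change of these ligands was -0.03 between G3 and G1, beside -0.02 for all genes, and 0.19 between G2 and G1, beside -0.01. TGFB1, the main profibrotic ligand, was at 178.8 CPM in G1, 205.3 in G2 and 197.4 in G3 on average (adjusted p = 0.840 for G2 and 0.919 for G3 against G1, edgeR). INHA, the alpha subunit that pairs with INHBB in inhibin B, had at most 6 counts in any kidney. It was the 1 of 24 ligands (4.17%, beside 3.51% of all genes) with an unadjusted p under 0.05 between G2 and G1 (log2 fold change -1.85, unadjusted p = 0.0485, adjusted p = 0.840, edgeR).

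Of the receptors, SMAD proteins and inhibitors, 0 of 17, 0 of 6 and 0 of 21 had an unadjusted p under 0.05 between G3 and G1 in edgeR, beside 4.73% of all genes. Between G2 and G1 the counts were 1 of 17 (5.88%), 0 of 6 and 1 of 21 (4.76%), beside 3.51% of all genes. These were TGFBR3, the coreceptor betaglycan that also binds inhibin, at 35.2 CPM in G1 and 46.7 in G2 on average (log2 fold change 0.41, unadjusted p = 0.0235, adjusted p = 0.840, edgeR), and LTBP1, which binds latent TGF-beta, at 103.4 and 135.4 CPM (log2 fold change 0.39, unadjusted p = 0.0385, adjusted p = 0.840, edgeR). FST, the secreted follistatin that binds activins, was at 0.643 CPM in G1, 0.766 in G2 and 0.632 in G3.

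The target genes of TGF-beta and BMP signals included 4 of 12 with an unadjusted p under 0.05 between G2 and G1, beside 3.51% of all genes, and 0 of 12 between G3 and G1, beside 4.73%. Between G2 and G1, CCN2, a matrix-associated protein, had a log2 fold change of -0.37, ID4, a dominant-negative helix-loop-helix protein, -0.70, HAMP, the iron hormone hepcidin, -2.23 at no more than 13 counts, and TGFBI, an extracellular matrix protein, 0.65 (adjusted p = 0.840 for each, edgeR). The ID proteins 1 to 3, which take E-proteins away from factors such as TWIST1, had log2 fold changes of -0.25, -0.03 and 0.27 between G3 and G1 (adjusted p = 0.813 or more, edgeR).

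Of the 7 other mesenchymal transcription factors tested, 0 had an unadjusted p under 0.05 in any comparison with edgeR. The share of all genes was 4.73% between G3 and G1, 3.51% between G2 and G1 and 3.13% between G3 and G2. With 7 genes, 0 is near these shares. Between G3 and G1, SNAI1 was at a log2 fold change of -0.30 (unadjusted p = 0.0692, adjusted p = 0.813, edgeR), SNAI2 at -0.19, ZEB1 at 0.02 and the paralog TWIST2 at -0.12. Of the E-protein partners, TCF4 was at 24.5 ± 1.82 CPM (SD, n = 5) in the G1 kidneys, 33.9 ± 12.5 in G2 and 35.4 ± 8.70 in G3 (SD, n = 6 each), with log2 fold changes against G1 of 0.47 for G2 and 0.52 for G3 (unadjusted p = 0.0397 and 0.00424, adjusted p = 0.840 and 0.807, edgeR). The endothelial markers had medians above 0 in both comparisons with G1, and their part in the level of TCF4 was not tested. The study lists TCF4 among its top genes between G3 and G1, with an adjusted p under 0.05 from its own DESeq2 test. It lists INHBB too and names TWIST1 in its text, so none of these is independent of these kidneys. DESeq2 as run here did not call TCF4 between G3 and G1 at an adjusted p under 0.05, so that call was not reproduced. TCF3 and TCF12 had no unadjusted p under 0.05 in edgeR, which leaves 1 of 3 partners for each EV group against G1. Of 12 mesenchymal and epithelial state genes, 2 (16.7%) had an unadjusted p under 0.05 between G2 and G1 (edgeR), beside 3.51% of all genes. VIM, the intermediate filament vimentin, was at 362.9 CPM in G1, 522.1 in G2 and 404.7 in G3 (log2 fold change of G2 against G1 0.52, adjusted p = 0.840, edgeR). MMP2, a gelatinase, was at 37.5, 60.5 and 47.3 CPM (0.69, adjusted p = 0.840, edgeR). Both stand beside the marker medians above 0 between G2 and G1, whose part was not tested. The study reports higher vimentin staining in G3, which is a measure of protein and not of RNA. Between G3 and G2, FN1, which encodes fibronectin, was at a log2 fold change of -0.83, SPARC, a matrix glycoprotein, at -0.49 and the ligand BMP5 at -1.38 (adjusted p = 0.948 for each, edgeR). There, 2 of 12 state genes (16.7%) and 1 of 24 ligands (4.17%) had an unadjusted p under 0.05 in edgeR, beside 3.13% of all genes. In that comparison 10 of 12 fibroblast and pericyte markers were below 0 (median -0.29) and 3 of 12 had an unadjusted p under 0.05 in edgeR, beside 3.13% of all genes, and their part was not tested.

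**Figure D5:**
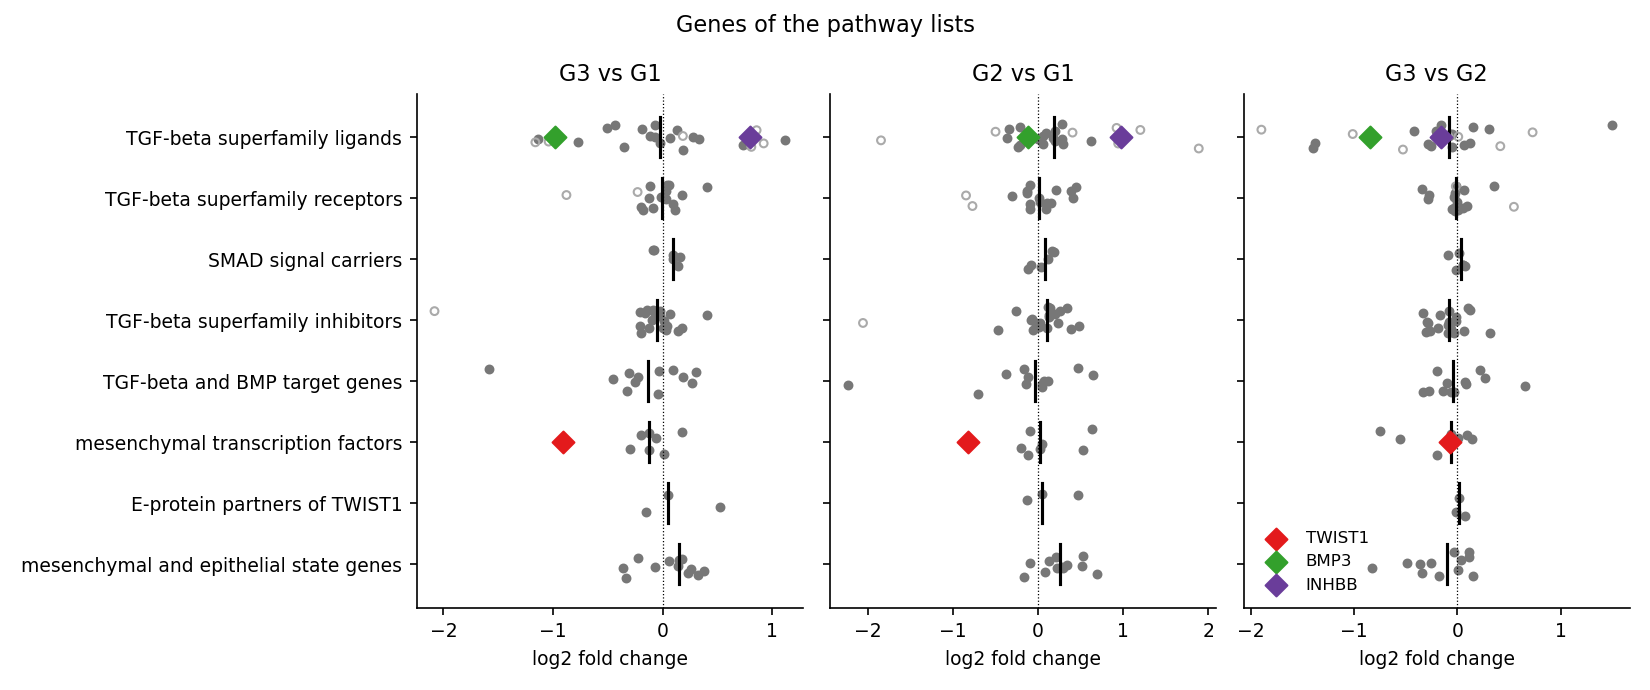
Log2 fold change (edgeR) of the genes of each pathway list in the 3 comparisons, each grey point 1 gene, open points genes with fewer than 10 counts in every kidney, black bars the list medians and diamonds TWIST1, BMP3 and INHBB. List medians lie between -0.13 and 0.25, and 0 grey points pass an adjusted p under 0.05.

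Genes with a pattern over the 17 kidneys most like that of each gene were found by Pearson's r of log2 CPM among 13710 other genes with a mean of at least 1 CPM. For TWIST1 these were NR4A1, a nuclear receptor of the early response (r = 0.85, and 0.81 with group means removed), RASSF5, a Ras-association protein (0.84 and 0.81), and UPF3A, a factor of nonsense-mediated decay (0.81 and 0.49). For BMP3 they were GFOD1 (0.82 and 0.86), ARMC9, a ciliary protein (0.81 and 0.74), and EPHA4, an ephrin receptor (0.80 and 0.68). For INHBB they were ENSSSCG00000052347, for which no name was found (0.88 and 0.91), S1PR1, a sphingosine-1-phosphate receptor abundant in endothelium (0.86 and 0.79), and DIPK2B (0.85 and 0.75). The mean of S1PR1 was 136.9 CPM in G1, 173.8 in G2 and 166.8 in G3, and that of NR4A1 was 119.5, 91.2 and 93.4 CPM. These r values are the highest of many and are descriptions without a test, and UPF3A and DIPK2B are also on the study's list of top genes between G3 and G1.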

How the data were processed

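The authors trimmed read pairs with cutadapt 4.0, used STAR 2.7.5a and the genome build Sscrofa11.1 (Ensembl annotation 108) for alignment, and deposited 1 table of raw counts by gene. The counting program and its strand setting are not given in the sources used here. A deposited table of the authors' own DESeq2 comparison of G3 with G1 (fold changes and p-values) was used for gene symbols only. Genes and lists were chosen with earlier results of these data known. Symbols were matched for 15104 of 26560 identifiers. Sequences were not used here.

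Comparisons used genes with 1 count or more in either group, fitted with edgeR 4.0.16 (R 4.3.3; TMM, quasi-likelihood test, Benjamini-Hochberg adjustment over all genes tested, threshold 0.05). The standard error is the log2 fold change over the square root of F. The script recovered most known changes in simulated counts. These changes were placed only in genes with higher mean counts than TWIST1 and BMP3, so the simulation did not cover genes of so few reads. CPM and log2 CPM (prior count 2) used TMM over all 17 kidneys. Permutation tests were two-sided (Python 3.11.15, scipy 1.17.1). Alternatives were DESeq2 1.42.0, other scalings and filters, 1 fit of all 3 groups, a covariate for code series, kidney number as a block, and fits without each kidney in turn. Genes named were the 3 members, the genes of the lists with the smallest p, and the 3 most alike each member. Other list members stand for their role and were named after their values were seen. Kidneys with the same number were checked for shared deviations and are not paired, as each comes from another pig.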

Additional observations from a re-analysis of the deposited data

Results flagged for a closer look

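Dixon's test at the 95% level on log2 values of the 3 genes and 7 marker lists, in each of the 3 groups, gave 4 values that stood apart among 30 tests. Chance gives about 1 in 20. BMP3 in G1 kidney 5 was above the other G1 kidneys, with a gap of 0.881 of the whole range of the group. BMP3 in G2 kidney 3 was below the other G2 kidneys, with a gap of 0.757 of the range. INHBB in G3 kidney 3 was below the other G3 kidneys, with a gap of 0.739 of the range, and the endothelial marker level was lowest in the same kidney, with a gap of 0.662 of the range. Without that kidney, the log2 fold change of INHBB between G3 and G1 was 0.95 in place of 0.80.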

How the results depend on the processing

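Relations with marker lists were chosen after seeing the data. Between G3 and G1 the log2 fold changes kept their direction in every fit: TWIST1 from -1.04 to -0.81, BMP3 from -1.15 to -0.82 and INHBB from 0.70 to 0.98. For G2 against G1, TWIST1 ran from -1.02 to -0.71 and INHBB from 0.79 to 1.10 over the fits that left out 1 kidney, with adjusted p from 0.711 to 0.976 for both (edgeR). A covariate for code series gave 1.29 for INHBB. In exact permutation tests of log2 CPM (unadjusted), G2 differed from G1 by -0.82 for TWIST1 (p = 0.0130) and by 0.92 for INHBB (p = 0.00649). G3 differed from G2 by -0.66 for BMP3 (exact permutation test, p = 0.0823). The G1 and G3 kidneys in these tests are those of the contrast by which the genes were chosen. These p are therefore not independent of the choice. Leaving out 1 kidney turned the sign of 3 differences near 0: BMP3 between G2 and G1 (-0.22 to 0.073), and between G3 and G2 TWIST1 (-0.18 to 0.12) and INHBB (-0.28 to 0.015). The cause was not tested. Within G2, r of TWIST1 and INHBB was -0.93 without the 2 farthest kidneys, which leaves too few kidneys to read. With 1 kidney left out it ran from -0.77 to -0.51. That of TWIST1 and BMP3 ran from -0.30 to 0.37 and that of BMP3 and INHBB from -0.065 to 0.28 with 1 kidney left out.

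The 2 list genes at an unadjusted p under 0.05 between G3 and G1 became 5 with library size only, 1 with edgeR's expression filter, 8 with the code series and from 1 to 6 with 1 kidney left out. Over all genes, library size only gave 304 higher and 1055 lower of 25719 at that threshold. The filter gave 340 and 331 of 15261, and the code series 521 and 737 of 25719. Between G2 and G1 the 10 became 5 with that filter, beside 209 higher and 217 lower of 15250 genes, and from 4 to 11 with 1 kidney left out. Between G3 and G2 the 3 became 5 with library size only, 7 with the code series and from 1 to 7 with 1 kidney left out. Over all genes, calls between G3 and G1 at an adjusted p under 0.05 were 2 lower with edgeR, 23 higher and 8 lower with DESeq2, 0 in 1 fit of all 3 groups, and 2 higher and 9 lower with the code series. At an unadjusted p under 0.05 (edgeR), library size only shifted the genes between G3 and G1 from 498 higher and 718 lower to 304 and 1055. At an adjusted p under 0.05 both fits gave 0 higher and 2 lower. Without the 2 farthest kidneys, r of BMP3 with podocyte, leukocyte and urothelium markers became -0.11, -0.20 and 0.042, and that of INHBB with proximal tubule markers -0.14. With 1 kidney left out, r of INHBB with endothelial markers ran from -0.073 to 0.68 within G1 and from -0.021 to 0.99 within G3.

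Kidney number as a block drops any kidney without a same-numbered partner in the other group, which leaves all 12 kidneys between G3 and G2. With it, the list genes at an unadjusted p under 0.05 were 5 between G3 and G1 and 5 between G3 and G2 (edgeR). Over all genes there were 531 higher and 591 lower of 25624, and 299 higher and 245 lower of 25701, at that threshold. The genes of the whole table with an adjusted p under 0.05 were 5 higher and 4 lower between G3 and G1, 0 between G2 and G1, and 7 higher between G3 and G2 (edgeR). Deviations of same-numbered kidneys correlated at -0.13 to 0.40, -0.15 to 0.17 and -0.26 to 0.44 in these comparisons, and 5 of 10, 2 of 10 and 3 of 12 kidneys were closest to their own number. TWIST1 and BMP3 rest on 8 to 76 counts per kidney, which limits their precision.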
